A study of Homo sapiens with 6 samples.

Results

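The G1 cyclins and their kinases are the 3 D-type cyclins (CCND1, CCND2 and CCND3), the 2 E-type cyclins (CCNE1 and CCNE2) and the kinases they activate (CDK4 and CDK6 with D-type, CDK2 with E-type cyclins). These 8 genes were taken by symbol out of 18417 genes measured, each read by 1 probe set, and all 8 symbols matched the RefSeq gene table. The arrays came from MCF10A, an established human breast epithelial line that does not form tumours, in a version the labels call mcf10erbb2, after the receptor tyrosine kinase ErbB2. All cells grew for 7 days as 3-D cultures in reconstituted basement membrane, in medium with horse serum, insulin, cholera toxin and hydrocortisone. The groups were RB-proficient (title tag miNS, 3 arrays) and RB-deficient (title tag miRB, 3 arrays). The tags are not spelled out, and the labels do not say how ErbB2 or the change in RB was introduced, whether a group was a clone or a pool, or whether replicates were separate cultures. The p-values therefore measure only the spread between these arrays, which may be technical.

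D-type cyclins are made in response to growth signals and bind CDK4 and CDK6, and these complexes begin the phosphorylation of RB in G1. Phosphorylated RB releases E2F transcription factors, whose targets include the E-type cyclins. Cyclin E then activates CDK2, which phosphorylates RB further and drives entry into S phase. Cells that lack RB are known to depend less on CDK4 and CDK6. In breast epithelium and its cancers, cyclin D1 is a known effector of ErbB2 signalling. The comparison by RB state asks how the transcripts of these genes, which lie upstream of RB or are E2F targets themselves, differ between the cultures.

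Values are log2 of the deposited intensity after scaling that gave all arrays the same median, which lies at 4.75 on this scale. Levels of different genes come from different probe sets and are not compared. Differences are RB-deficient minus RB-proficient on the log2 scale, n = 3 per group, with limma's standard error (SE) and its p adjusted by Benjamini-Hochberg over all 18417 genes. Cells and matrix were lysed together, so fewer cells with a transcript and less of it per cell cannot be told apart.

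The arrays labelled RB-deficient were less alike than the RB-proficient ones. Across genes, which are not independent replicates, Pearson's r was 0.67 to 0.75 among them and 0.90 to 0.92 among the RB-proficient arrays, and the array labelled RB-deficient 3 reached 0.83 to 0.88 with the latter. RB1, which encodes RB, ran from 5.78 to 7.65 in the RB-proficient group and from 3.45 to 6.04 under the RB-deficient label. The difference was −1.95 (SE 0.76, adjusted p 0.302), and the ranges overlapped, so directions are only as sure as the labels. The reference genes ACTB (−1.92, SE 0.50) and GAPDH (−1.23, SE 0.47) were lower in each array labelled RB-deficient. Of 9 measured mammary epithelial markers 8 were lower, where 10800 of all 18417 genes were. EPCAM was higher (group means 10.03 and 10.27, difference 0.24, SE 0.46). The summed scaled intensity of the 9 markers was 3422 to 6196 in the RB-proficient and 2087 to 2885 in the other arrays. KRT5, which is part of these sums, ran from 6.38 in RB-deficient 2 to 11.65 in RB-proficient 3. The sums were 142 to 197 and 142 to 285 for 7 fibroblast markers, 462 to 582 and 292 to 349 for 4 endothelial markers, and 307 to 425 and 167 to 235 for 4 leukocyte markers. CDH5 alone (group means 8.93 and 8.06) made up most of the endothelial sums, and CD68 alone (8.20 and 7.04) most of the leukocyte sums. Of the 4 endothelial markers 3 were lower and 1 higher. The 4 leukocyte markers had 2 lower and 2 higher, and PTPRC was among the higher (2.35 and 3.72). All PTPRC values (1.35 to 4.21) lay below the common median of the arrays. No marker was at the floor in all 6 arrays, and whether other cells were present was not tested. The part of any of these in the results that follow was not tested.

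By limma 0 of the 8 genes passed an adjusted p of 0.05, where 0.00543% of all genes did. The largest differences were in CDK4, which was 4.15-fold lower, and CCND3, which was 2.40-fold lower, each with all 3 values labelled RB-deficient below all 3 RB-proficient values. CCND1, CCND2, CDK2 and CDK6 differed by less than 0.3 on the log2 scale, and the E-type cyclins by −0.59 and 0.45. Groups that do not overlap were found for 2 of 8 genes, or 25%, against 22.4% of all genes, so that share is near the background. For the lower direction alone the background was 15.3%, and for the higher direction, with 0 of the 8, it was 7.12%. At an unadjusted p under 0.05, 2 of the 8 were lower, against a background of 10.8%. The median difference was −0.021 over the 8 genes and −0.21 over all genes.

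**Figure D1:**
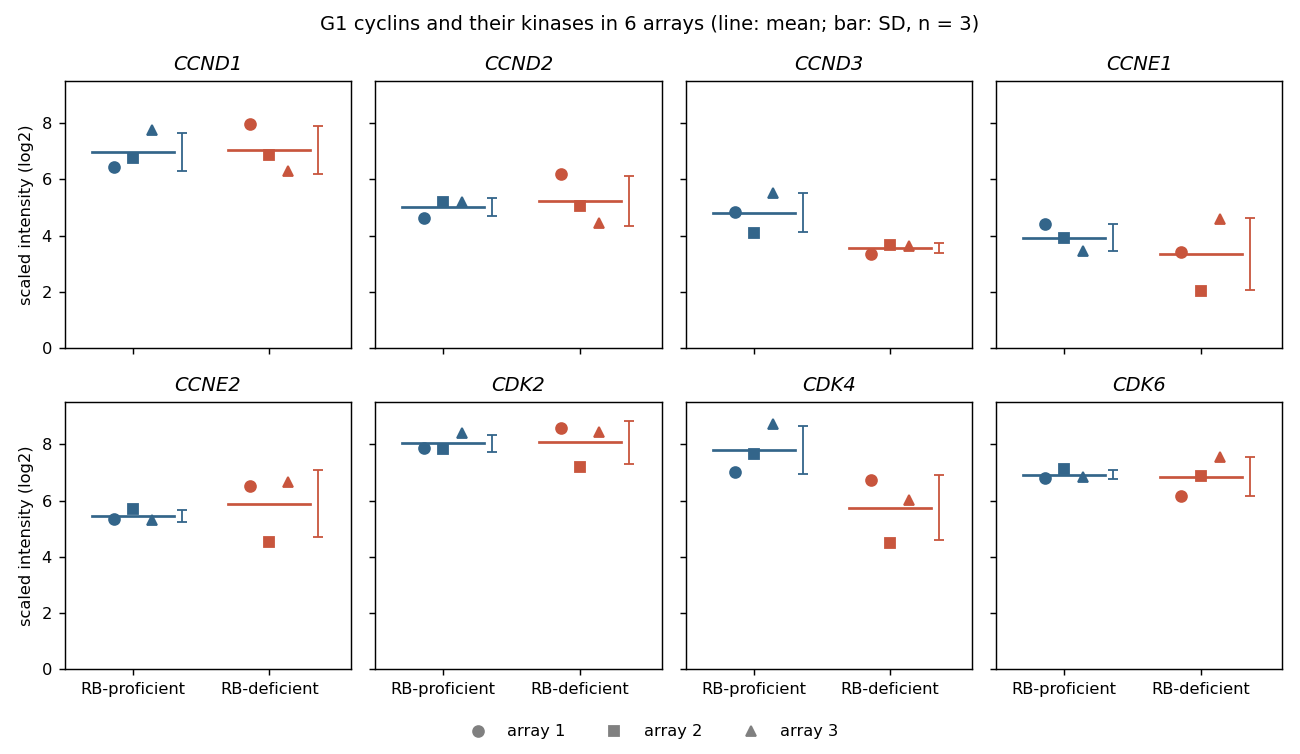
Scaled intensity on a log2 axis for each of the 8 genes in 3 RB-proficient (blue) and 3 RB-deficient (red) arrays, with the group mean as a line and its SD as a bar (n = 3). The groups are separate in CDK4 and CCND3 and overlap in the other 6 genes, and each panel has its own probe set, so heights are not comparable between panels.

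CDK4, the kinase partner of all 3 D-type cyclins, gave 7.02, 7.67 and 8.73 in RB-proficient arrays 1 to 3. Under the RB-deficient label, arrays 1 to 3 gave 6.74, 4.48 and 6.04. The array labelled RB-deficient 2 was the lowest by far, and a gap of 0.28 separated the highest of its group from the lowest RB-proficient value. The group means were 7.81 ± 0.87 and 5.75 ± 1.16 (SD), a difference of −2.05 (SE 0.71, 95% interval −3.64 to −0.47). By limma its adjusted p was 0.275, which missed the threshold. A more negative difference was found for 4.62% of all genes. With single arrays left out the difference ran from −2.55 to −1.42, the latter without the array labelled RB-deficient 2.

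The RefSeq promoter table (GRCh38.p14) held windows for CDK4, CDK6, CCND3 and CCNE1, 7 in all for 4 of the 8 genes, and CCND1, CCND2, CCNE2 and CDK2 were not in it. The 250 bases before the CDK4 start, at chr12:57752311-57752560 on the minus strand and outside any gene of the RefSeq table, are shown because CDK4 had the largest difference. Capitals mark the E-box CACGTG, the core sequence bound by MYC and related factors.

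CDK4: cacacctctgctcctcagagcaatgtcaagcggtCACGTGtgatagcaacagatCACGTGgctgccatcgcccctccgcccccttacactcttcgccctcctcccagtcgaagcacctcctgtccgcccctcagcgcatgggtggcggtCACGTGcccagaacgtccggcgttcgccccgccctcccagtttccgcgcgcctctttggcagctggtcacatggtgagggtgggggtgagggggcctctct

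The E-box, which reads the same on both strands, occurs 3 times in this stretch, beginning 216, 196 and 101 bases before the start. Of 35116 promoter windows of 300 bases, 7.26% held at least 1 E-box and 0.094% held 3 or more. The CDK6 windows held 1, just after a start, and those of CCND3 and CCNE1 held 0. The E2F letters TTTCCCGC, TTTGGCGC, TTTCGCGC and TTTGCCGC, searched on both strands, were in none of the 7 windows and in 3.31% of all windows. Other forms of E2F site were not searched, so this does not show that a window lacks one. Also searched on both strands were TGACGTCA, TGAGTCA and TATAAA, which were in none of the 7 windows. The GC box GGGCGG, on either strand, occurred 3 times in the CDK4 window, 7 times in the CCNE1 window, 0, 4 and 5 times in the CCND3 windows and 0 and 3 times in the CDK6 windows. Of all windows 45.0% held it and 15.8% held it 3 or more times. MYC itself, chosen after its values were seen, gave 6.15, 6.48 and 8.54 in the RB-proficient group, against 6.87, 6.12 and 5.62 in the other. The MYC groups overlapped (difference −0.85, SE 0.71, adjusted p 0.609). These letters describe the windows and show no binding.

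CDK6, the closest relative of CDK4 and the other D-type cyclin kinase, gave 6.82, 7.13 and 6.84 in the RB-proficient arrays. Under the RB-deficient label, arrays 1 to 3 gave 6.16, 6.87 and 7.54, so these lay below, within and above the RB-proficient range. The difference of −0.072 (SE 0.52) had a 95% interval that runs, as a fold, from 0.421 to 2.15 times the RB-proficient level. CDK2, the kinase of cyclins E and A, gave 7.88, 7.84 and 8.40 in the RB-proficient group, against 8.59, 7.19 and 8.44 in the other. Arrays 1 and 3 of the latter group lay above every RB-proficient value and array 2 below every one. The CDK2 difference was 0.030 (SE 0.55, 95% interval −1.20 to 1.26). Without the array labelled RB-deficient 2 it was 0.47.

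Among the D-type cyclins, CCND3 gave 4.84, 4.10 and 5.50 in the RB-proficient group and 3.36, 3.68 and 3.62 under the RB-deficient label. The latter 3 values lay close together, with an SD of 0.17 against 0.70 in the RB-proficient arrays, and CCND3 was the only one of the 8 genes whose spread was smaller in the RB-deficient group. The difference was −1.26 (SE 0.53, 95% interval −2.45 to −0.083), and limma's adjusted p was 0.335. CCND3 was dim: 4 of its 6 values lay below the common median of the arrays. Its difference shrank to −0.70 with an offset of 16 added before log2 and to −0.82 with a floor of 16. With single arrays left out it ran from −1.62 to −0.92.

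CCND1, the cyclin D1 gene, gave 6.44, 6.76 and 7.75 in the RB-proficient group and 7.97, 6.87 and 6.29 under the RB-deficient label. The highest and the lowest of all 6 values were both in the latter group, in arrays 1 and 3. The difference was 0.057 (SE 0.61, 95% interval −1.31 to 1.42), and it was −0.41 without the array labelled RB-deficient 1. CCND2, cyclin D2, gave 4.64, 5.20 and 5.19 in the RB-proficient group, against 6.19, 5.06 and 4.44 in the other. Again array 1 was the highest of the 6 and array 3 the lowest. The CCND2 difference was 0.22 (SE 0.57, 95% interval −1.07 to 1.51), and −0.26 without the array labelled RB-deficient 1.

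The E-type cyclin CCNE1 gave 4.41, 3.92 and 3.45 in the RB-proficient group and 3.40, 2.02 and 4.59 under the RB-deficient label. All 6 values lay below the common median, and the RB-deficient ones ran from below to above the RB-proficient range. The difference was −0.59 (SE 0.69, 95% interval −2.13 to 0.95), and 0.068 without the array labelled RB-deficient 2. CCNE2, the other E-type cyclin, gave 5.34, 5.69 and 5.30 in the RB-proficient group, against 6.51, 4.52 and 6.65 in the other. Arrays 1 and 3 of the RB-deficient group were above every RB-proficient value, and array 2 was below every one, the same arrangement as in CDK2. The CCNE2 difference was 0.45 (SE 0.64, 95% interval −0.99 to 1.89). It was 1.14 without the array labelled RB-deficient 2 and 0.072 without array 3 of that group.

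**Figure D2:**
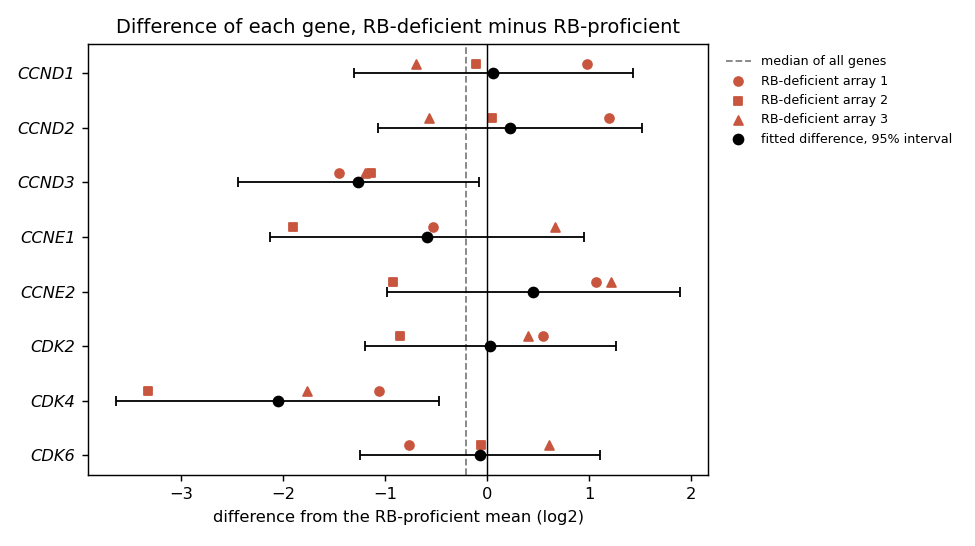
Difference from the RB-proficient mean on the log2 scale for each of the 8 genes, with the fitted difference and its 95% interval in black and the 3 arrays labelled RB-deficient as red symbols. All 3 arrays lie on the lower side only in CDK4 and CCND3; the dashed line is the median of all genes, −0.21.

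The 3 arrays labelled RB-deficient did not share a profile over these genes. Relative to the RB-proficient mean, array 1 was highest in CCND2 (1.19), CCNE2 (1.07) and CCND1 (0.98) and lowest in CCND3 (−1.46). Array 2 was lower in 7 of the 8 genes, most in CDK4 (−3.33) and CCNE1 (−1.91). Array 3 was higher in CCNE2 (1.21), CCNE1 (0.67) and CDK6 (0.61) and lower in CDK4 (−1.77), CCND3 (−1.20) and CCND1 (−0.70). The median over the 8 genes was 0.0081, −0.89 and −0.086 in arrays 1 to 3, beside −0.14, −0.37 and −0.14 over all genes. The spread within the group was larger than in the RB-proficient arrays for 7 of 8 members, or 87.5%, and for 81.0% of all genes. The median SD of the 8 genes was 0.40 in the RB-proficient and 0.87 in the other arrays, beside 0.40 and 0.84 over all genes.

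Whether relatives differed in their response was compared in 5 pairs, chosen after the values were seen. Exact two-sided permutation tests over the 6 arrays were used, which cannot give a p below 0.1. The SE of a pair comes only from the variances of its own values within each group. It is not limma's, so it cannot be set beside the SE of a single gene. CDK4 was lower than CDK6 in response by −1.98 (SE 1.02), with array values of −0.30, −3.27 and −2.37 and an exact p of 0.3 (0.375 after Benjamini-Hochberg adjustment over the 5 pairs). The response of CCND1 exceeded that of CCND3 by 1.32 (SE 0.66, exact p 0.1, adjusted 0.25) with array values of 2.44, 1.02 and 0.50. Without RB-deficient 1 it was 0.76, and with an offset of 16 it was 0.75. For CCND2 against CCND3 the value was 1.49 (SE 0.75, exact p 0.2, adjusted 0.333), with array values of 2.65, 1.19 and 0.63, and it was 0.91 without RB-deficient 1 and 0.88 with an offset of 16. CCNE1 responded lower than CCNE2 by −1.04 (SE 0.42), with array values of −1.60, −0.98 and −0.54 and an exact p of 0.1 (adjusted 0.25). With CCNE1 below the common median throughout, this became −0.39 under a floor of 16, or −0.58 under an offset of 16. CCND1 and CCND2 differed in response by −0.17 (SE 0.30, exact p 0.9), and this turned to 0.13 without RB-proficient 3 and to 0.035 with quantile normalization. None of the 5 pairs reached the threshold, and a design of this size could not have reached it.

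The pattern over the 6 arrays was also set against 8601 protein-coding genes at or above the median level, by the root mean square (RMS) difference of log2 values centred on each gene's mean. For CDK4 the nearest were ANPEP, an aminopeptidase (RMS difference 0.24, own difference −1.77), and CCT7, a chaperonin subunit (0.24 and −1.91), while the RMS spread of CDK4 itself was 1.32. For CCND3 they were PPP1R7, a phosphatase regulator (0.097 and −1.19), and MRPL45, of the mitochondrial ribosome (0.14 and −1.25). For CCND1 the nearest was TPM2, a tropomyosin (0.090), followed by LCN6 (0.097). For CCND2 they were NDUFB7, of respiratory complex I (0.091), and MTRES1 (0.11). For CDK2 they were PPWD1 (0.10) and DNAJC9, a histone chaperone (0.11), and for CDK6 SPIN4 (0.094) and PLEKHA3 (0.12). CCNE1 was nearest to DMXL1 (0.17) and UGCG (0.18), and CCNE2 to NRXN2 (0.21) and GPR25 (0.23). With 6 arrays and many genes, close matches of this kind are common, and they are a description.

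**Figure D3:**
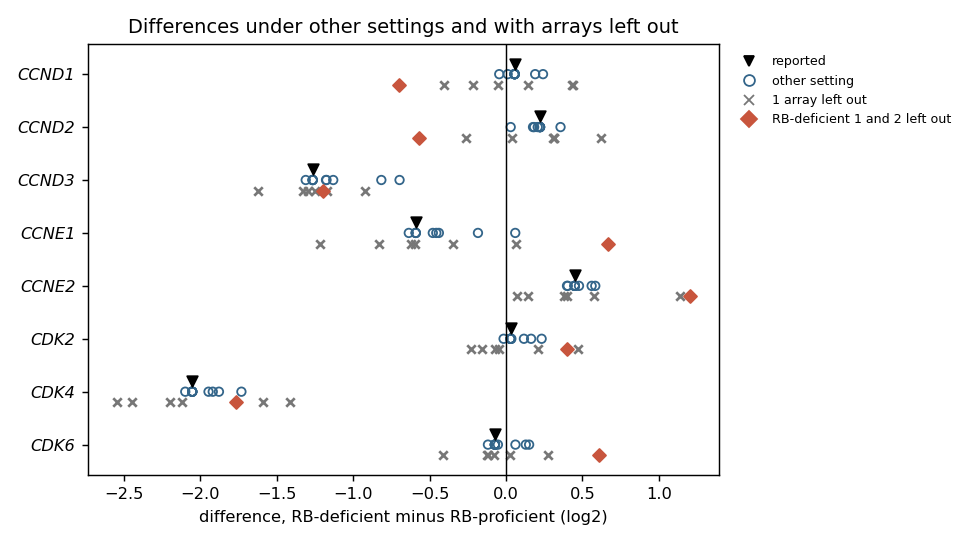
Difference of each of the 8 genes on the log2 scale as reported (black), under other settings (open circles), with 1 array left out (crosses) and without the arrays labelled RB-deficient 1 and 2 (red diamonds). CDK4 and CCND3 stay below 0 and CCNE2 above 0 under all of those run, and the other 5 genes take both signs.

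The arrays labelled RB-deficient 1 and 2 stood apart from the RB-proficient ones (r of 0.68 to 0.71 and of 0.69 to 0.75). Without both, CDK4 differed by −1.77 and CCND3 by −1.20, and CCNE2 by 1.21. CCND1 then differed by −0.70, CCND2 by −0.57, CCNE1 by 0.67, CDK2 by 0.40 and CDK6 by 0.61. These values rest on the array labelled RB-deficient 3 alone, and the fit then assumes that it varies like the RB-proficient arrays. CCND1, CCND2, CCNE1 and CDK6 changed sign by this omission. Passing genes among the 8 numbered 0 in that fit, as in every other setting run.

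Genes that act on or beside these cyclins and kinases were counted in 8 lists with 71 symbols, of which 69 genes were measured. By limma 0 of 69 passed, with a smallest adjusted p of 0.208, and 0 passed in any other setting run. At an unadjusted p under 0.05 there were 8, all lower, and 13.7% of all genes passed that in either direction. Of the 69 genes 50 were lower and 19 higher, with a median of −0.59. Over all 18417 genes 10800 were lower and 7617 higher, with a median of −0.21. Counts of lower genes in single lists, given next, have that same background. The groups did not overlap for 14 of the 69 genes. That is 20.3%, against 22.4% of all genes in either direction. All 14 were lower, a direction that holds 15.3% of all genes, and 0 were higher, against 7.12%. Many of the genes named next are dim or vary between arrays. For many of them a value with 1 array left out, or with another floor or offset, is given beside the difference. Not every such value is listed.

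The CDK inhibitors bind these kinases or their complexes and hold them inactive. Of 6 measured, 2 were lower and 4 higher, with a median of 0.44, which was 0.10 without RB-deficient 1, 0.16 without RB-deficient 2 and −0.11 without both. CDKN1A, which encodes p21, gave 6.25, 5.35 and 5.21 in the RB-proficient group, against 1.21, 4.11 and 5.0 in the other. It was the only inhibitor whose groups did not overlap, but array 1 set much of its difference of −2.16 (SE 0.89, adjusted p 0.333), which was −1.05 without it and −1.08 with an offset of 16. CDKN2A, which encodes the CDK4 and CDK6 inhibitor p16, gave 2.44, 2.30 and 2.94 in the RB-proficient group, against 2.36, 4.42 and 3.11 in the other. All of these values lay below the common median of the arrays, and whether they were above background is unknown. The CDKN2A difference was 0.74 (SE 0.61, limma's adjusted p 0.611). It was 0.17 without RB-deficient 2, 1.20 without RB-deficient 1 and 0.14 with a floor of 16. CDKN1B, which encodes p27, differed by 0.53 (SE 0.51), and by 0.24 without RB-deficient 1.

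Genes for activation and turnover of the complexes were counted next. Of 6 genes of the CDK-activating kinase and the CDC25 phosphatases 3 were lower, with a median of −0.070 that took both signs over the settings run. CDC25C differed by −1.49 (SE 0.61), but only by −0.064 with a floor of 16 and −0.96 without RB-proficient 3. MNAT1 differed by −0.50 (SE 0.53), with a range of −0.83 to −0.27 over single omissions, and CCNH, the cyclin of the activating kinase, by 0.38 (SE 0.52), with a range of 0.13 to 0.77. Of the kinases that inhibit CDKs, PKMYT1 differed by −1.02 (SE 0.71), by −0.25 with a floor of 16 and by −0.46 without RB-deficient 1. WEE1 differed by 0.21 (SE 0.53), with both signs over single omissions. Of 13 genes of ubiquitin-dependent cyclin turnover 11 were lower, with a median of −0.77. In that list SKP2, which targets p27 for destruction, differed by −1.22 (SE 0.56). The CDK-binding subunit CKS2 differed by −1.49 (SE 0.68; −0.87 without RB-proficient 2) and the deubiquitinase USP28 by −1.28 (SE 0.65; −0.79 without RB-deficient 1).

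Of 13 transcription factors upstream of D-type cyclins 11 were lower, with a median of −0.92, beside 10800 lower of all 18417 genes. ETS2 gave 6.89, 7.00 and 7.82 against 5.50, 4.78 and 6.29, groups that did not overlap (−1.71, SE 0.57, adjusted p 0.265). JUN, a subunit of AP-1, differed by −1.43 (SE 0.67), and by −0.70 without RB-proficient 1, where it was 8.51. STAT5B differed by −2.16 (SE 0.99), with 1.59 in the array labelled RB-deficient 1 and 6.12 in array 3 of that group. Its difference was −0.96 without the former array and −1.36 with a floor of 16. All 5 E2F activators and their partners were lower, with a median of −0.68, which was −0.32 under a floor of 16, or −0.30 under an offset of 16. TFDP1 differed by −0.87 (SE 0.47). The dimmer E2F2 differed by −0.78 (SE 0.58; −0.32 with a floor of 16 and −0.46 without RB-deficient 1) and E2F3 by −0.68 (SE 0.50; −0.066 with a floor of 16).

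The S and M phase cyclins and CDK1, which act after the G1 cyclins, had a median of 0.19, with 2 of 5 lower. The sign of this median turned without RB-deficient 1 (−0.55), RB-deficient 2 (−0.23) or RB-proficient 1 (−0.17), and without the dimmest 25% of genes (−0.18). CCNB1 differed by −0.82 (SE 0.73), with a range of −1.53 to −0.46 over single omissions, and CCNB2 by −0.54 (SE 0.53), with a range of −0.96 to −0.29. CCNA1 differed by 0.46 (SE 0.71), and by −0.23 without RB-deficient 2. The list median was 0.60 in the array labelled RB-deficient 1 and −0.59 and −0.52 in arrays 2 and 3. MKI67, a marker of cycling cells, differed by −0.44 (SE 0.70), with both signs over single omissions, and PCNA, the sliding clamp of replication, by 0.60 (SE 0.52), with a range of 0.36 to 0.94. Of 19 other cyclins and kinases, most of them with roles outside the G1 to S step, 15 were lower, with a median of −0.62, or −0.36 without RB-deficient 2. CDK16 gave 6.08, 5.92 and 6.48 against 3.33, 4.34 and 4.37 (−2.15, SE 0.51, adjusted p 0.208; −1.43 with an offset of 16). CDK9, of the transcription elongation factor P-TEFb, gave 8.57, 8.69 and 8.58 against 3.0, 5.46 and 7.96. Its difference was −3.14 (SE 1.04), −1.90 when RB-deficient 1 was left out and −0.65 in RB-deficient 3 alone. CDK5 differed by −1.42 (SE 0.55).

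**Figure D4:**
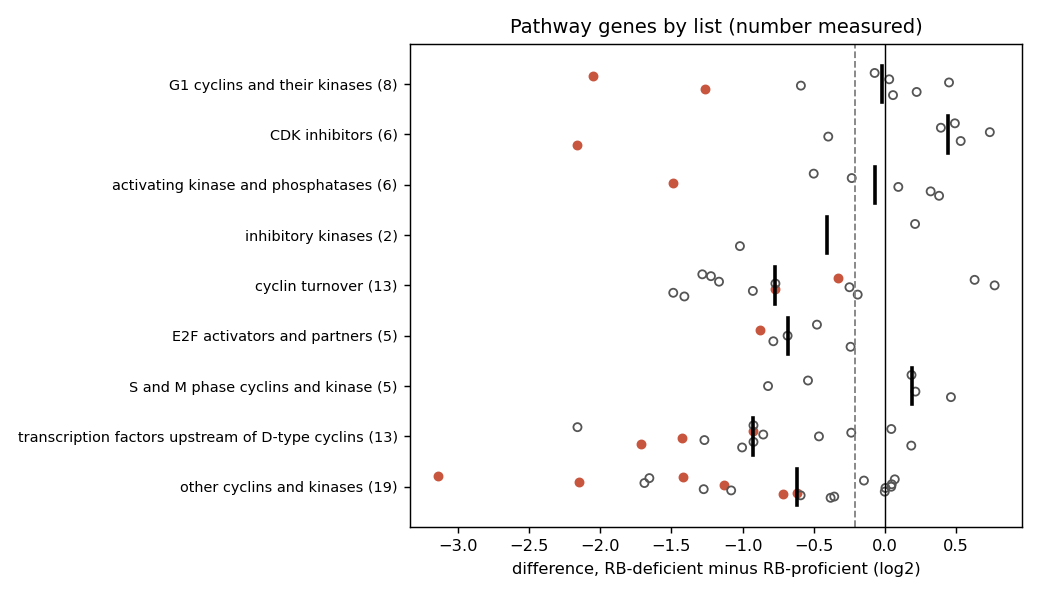
Differences of the 8 G1 genes and of 69 genes in 8 pathway lists on the log2 scale, with red points for genes whose groups did not overlap and a black bar at each list's median. The dashed line is the median of all genes, −0.21; the bars of 5 lists lie below it, and those of the CDK inhibitors and of the S and M phase genes lie above 0 with all 6 arrays, and below 0 without the arrays labelled RB-deficient 1 and 2.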

How the data were processed

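Per the labels' protocols, WT-Ovation Pico amplification and biotin labelling were applied to total RNA, 1 sample per array. The deposited values are linear intensities per probe set from the authors' Affymetrix Expression Console 1.1, per the submitters' processing notes; how they were background-corrected, summarised and normalized is not given in the sources used here. Of 33297 probe sets, 19460 had 1 gene symbol in the platform annotation (1754 had several and 12083 were not listed), giving 18417 genes; of several probe sets the one with the highest mean was used.

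Arrays were scaled to the same median, a floor of 1 was applied and log2 was taken. The test was limma's (version 3.58.1, R 4.3.3; lmFit, then eBayes; two-sided; no covariates), adjusted by Benjamini-Hochberg over all genes at 0.05. The fit was run on simulated data with independent normal noise of the same spread in both groups. In the arrays the spread was larger in the RB-deficient group for 81.0% of all genes. The simulation therefore does not show how the fit performs on these arrays. The number of arrays limits the precision, and no detection calls were used, so which probe sets were above background is unknown.

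The 8 genes, the lists and the alternatives were chosen with earlier results of these data known. Named were the 8 genes, the pocket protein, ERBB receptor, reference and proliferation genes, up to 3 genes of smallest p per list, the 2 genes nearest in pattern to each of the 8, and MYC, which falls outside this rule and was chosen after its values were seen. RBL1 (−0.58, SE 0.61), RBL2 (−1.15, SE 0.50), ERBB2 (−1.31, SE 0.48) and EGFR (−0.99, SE 0.52) are those not described in the results, as log2 differences. By limma their adjusted p were 0.686, 0.358, 0.288 and 0.431. In RBL2, ERBB2 and EGFR all values labelled RB-deficient lay below all RB-proficient ones, as in 15.3% of all genes, and RBL1 overlapped. The ERBB2 values labelled RB-deficient (3.99, 3.67 and 4.19) lay below the common median of the arrays. Promoter sequences are RefSeq's for GRCh38.p14.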

Additional observations from a re-analysis of the deposited data

How the results depend on the processing

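Of the 8 genes, 0 passed in each of 18 alternative settings. The adjusted p ran from 0.0759 (offset of 16) to 0.728 for CDK4 and from 0.249 to 0.770 for CCND3. Over all genes, 1 gene was called as reported, against 0 with quantile normalization, without the dimmest 25% of genes or without the arrays labelled RB-deficient 1 and 2, 4 without the dimmest 50%, 58 with a floor of 16, 61 with eBayes with trend and robust, 193 with an offset of 16, and 0 to 4 with single arrays left out. CCNE1 was removed by both filters on dim genes and CCND3 by the stricter one, so the count of members whose groups did not overlap went from 2 to 1. It was 2 to 4 with single arrays left out (4 without the array labelled RB-deficient 2). Groups of fewer arrays overlap less readily, and the share over all genes was not computed for these omissions, so these counts have no background. With the arrays labelled RB-deficient 1 and 2 left out, 1 array remained in that group, so no count is given. The differences of CDK6 were 0.13 with quantile normalization, 0.062 with centring and 0.15 with array weights, that of CDK2 −0.015 without scaling, that of CCNE1 0.061 with a floor of 16 and that of CCND1 −0.044 with array weights. Without both of those arrays CCNH differed by −0.40 and RBL1 by 0.43, CCND1 by −0.70, CCND2 by −0.57, CCNE1 by 0.67 and CDK6 by 0.61. Single omissions gave −0.41 to 0.44 for CCND1, −0.26 to 0.62 for CCND2, −1.22 to 0.068 for CCNE1, −0.23 to 0.47 for CDK2, −0.41 to 0.27 for CDK6, −0.065 to 0.52 for WEE1, −1.0 to 0.14 for MKI67 and −0.23 to 0.93 for CCNA1. The cause of these changes was not tested. The median difference of all genes was −0.21, −0.092 with quantile normalization, −0.077 with centring, −0.080 with an offset of 16 and 0 with a floor of 16. Same-numbered arrays correlated at −0.12, 0.074 and −0.11 in their deviations from the group means, so the numbers were not taken as pairs; with the replicate block 1 gene and 0 of the 8 were called, and CDK4 had an adjusted p of 0.237.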
